A study of Danio rerio with 6 samples.

Results

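The lysyl hydroxylase genes (*plod*) and the collagen galactosyltransferase genes (*colgalt*) were taken from the RNA-seq table of zebrafish larvae as the rows whose gene name begins with plod or colgalt. Upper and lower case were both accepted, which gave 6 genes of 32520, and 5 of these are written in lower case. The 6 genes were *plod1a*, *plod2*, *plod3*, *colgalt1* on chromosome 3, a gene listed in capitals as *COLGALT1* on chromosome 1, and *colgalt2*. The NCBI gene number given in the table for *COLGALT1* belongs to *colgalt1b* in the RefSeq gene list. The tested larvae were homozygous for *maggot* (*mgt*), an ENU-induced allele of *plod3*, and the reference larvae were WT fish of the AB strain. Each genotype had 3 pools of 60 whole larvae, taken at 4 dpf (days post fertilization). The labels call the *mgt* larvae *plod3* KO. The paper describes the allele as a missense change of a glycine in the glycosyltransferase domain. It proposes that the allele acts as a severe loss of function or a knockout, and reports less Plod3 protein in *mgt* larvae by Western blot. With a missense change a transcript is still made, so its level does not check the genotype and is not the protein level. The labels and a figure legend of the study call the pools biological replicates, whereas another legend calls them technical ones. The p-values measure only the spread between these pools.

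Collagen lysines are modified in the endoplasmic reticulum while the chains fold. Lysyl hydroxylases use oxygen, iron, vitamin C and 2-oxoglutarate to turn chosen lysines into hydroxylysine, with succinate as a by-product. Galactosyltransferases of the COLGALT family then add galactose to some of these residues, and PLOD3 can add glucose on top. In humans PLOD1 acts mainly on lysines of the triple helix and PLOD2 on those of the short telopeptides that form stable cross-links, and PLOD3 is the member with hydroxylase and glycosyltransferase activity in one protein. In zebrafish, *plod3* is the gene of the *diwanka* mutant, in which motor axons fail to leave the spinal cord properly. The comparison asks whether the other hydroxylases and the galactosyltransferases were more abundant as RNA where *plod3* is mutated.

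Levels are RPKM, the reads per kilobase of gene and per 1e+06 reads of the library. Comparisons between genes rest on the gene lengths behind these values, which the sources used here do not give. In these libraries 1 RPKM corresponds to between 38.35 and 50.27 reads on a kilobase. All 6 genes passed the filter, a mean of 0.5 RPKM or more, which left 20435 genes for the test. Differences were tested with limma on log2(RPKM + 0.5), and a gene was called at a Benjamini-Hochberg adjusted p below 0.05 over all genes tested with a log2 fold change of at least 0.32 in either direction. Many genes passed, with 47.4% of all genes tested called, 31.8% higher in *mgt* and 15.6% lower, and the median log2 fold change was 0.29. Every *mgt* library was in batch 2 and every WT library in batch 1 of the labels, so batch and genotype cannot be told apart. WT replicate 1 stood apart from the other WT replicates and lay 0.53 of the way from them to *mgt* on the first principal component, so the values without it are given beside each of the 6 genes. The label of WT replicate 3 gives different numbers for its library and for its column in the table, so which pool that column holds is less certain than for the others. Bulk RNA cannot tell more cells of a type from more RNA per cell.

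Among the *plod* genes all 3 were higher in *mgt*, and the gene with the largest difference was *plod1a*, followed by *plod2*. The mutated gene itself, *plod3*, had the smallest difference of the 3. Among the *colgalt* genes, *COLGALT1* and *colgalt2* were called higher, and *colgalt1* was not called. Of the 6 genes, 5 were called higher and 0 lower, where 31.8% of all genes tested were called higher. Among the 4168 genes tested with a span of 30 to 80 kb, 42.8% were called higher, with a median log2 fold change of 0.52. The genes *plod1a*, *plod2*, *plod3* and *colgalt2* have spans in that range. With the trend with gene span removed, 3 of the 6 genes were called. The pools of *mgt* and WT did not overlap in the 5 genes called as deposited, always with *mgt* above. Over all genes tested, 41.7% had every *mgt* pool above, 21.6% had every *mgt* pool below, and 63.4% were without overlap in either direction.

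The *plod1a* gene encodes the zebrafish counterpart of PLOD1, whose loss in humans causes the kyphoscoliotic form of Ehlers-Danlos syndrome. It lies at chr8:47850073-47895817 of GRCz11 (ENSDARG00000059746). Its RPKM was 30.5, 32.33 and 33.04 in *mgt* replicates 1, 2 and 3, against 8.46, 8.82 and 6.80 in WT replicates 1, 2 and 3. The groups were far apart, since the lowest *mgt* pool was above 3 times the highest WT pool. The mean was 32.0 ± 1.31 (SD, n = 3 pools) in *mgt* and 8.03 ± 1.08 (SD, n = 3) in WT, a ratio of 3.98. On the log2 scale *plod1a* rose by 1.94 (standard error 0.12, adjusted p = 2.0e-04 by limma, Benjamini-Hochberg). Of all genes tested, 98.6% had a lower log2 fold change. WT replicate 1 gave much the same picture as the other WT pools, with a ratio of *mgt* to WT of 3.78 against WT replicate 1 and of 4.09 against WT replicates 2 and 3. Without WT replicate 1 the log2 fold change of *plod1a* was 1.98 (limma adjusted p = 5.5e-06).

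The *plod2* gene, the counterpart of the telopeptide hydroxylase that is mutated in human Bruck syndrome, lies at chr24:5237709-5314707 (ENSDARG00000011821). It spans 76999 bases, the longest of the 6. Its RPKM was 13.2, 14.9 and 14.4 in *mgt* replicates 1, 2 and 3, against 4.15, 4.64 and 3.85 in WT replicates 1, 2 and 3. No *mgt* pool came near a WT pool, and WT replicate 1 lay between the other WT replicates. The mean was 14.2 ± 0.86 (SD, n = 3) in *mgt* and 4.21 ± 0.40 (SD, n = 3) in WT, a ratio of 3.37. On the log2 scale *plod2* rose by 1.64 (standard error 0.11, adjusted p = 3.0e-04 by limma, Benjamini-Hochberg), and 96.9% of all genes tested had a lower log2 fold change. Without WT replicate 1 it was 1.63 (limma adjusted p = 7.4e-06).

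The *plod3* gene lies at chr23:44843860-44879214 (ENSDARG00000076317). Its RPKM was 23.9, 24.3 and 24.4 in *mgt* replicates 1, 2 and 3, against 16.8, 15.3 and 14.2 in WT replicates 1, 2 and 3. The *mgt* pools were close together and all above the WT pools, of which WT replicate 1 was the highest. The mean was 24.2 ± 0.24 (SD, n = 3) in *mgt* and 15.4 ± 1.28 (SD, n = 3) in WT, a ratio of 1.57. On the log2 scale *plod3* rose by 0.63 (standard error 0.096, adjusted p = 0.0044 by limma, Benjamini-Hochberg). Of all genes tested, 68.9% had a lower log2 fold change, so this gene stood much nearer to the middle of the distribution than *plod1a* and *plod2*. Without WT replicate 1 the log2 fold change of *plod3* was 0.69 (limma adjusted p = 5.8e-05). Genes with a longer span had higher log2 fold changes in general (Spearman's rho = 0.32 across the genes tested, which do not count as replicates). After removal of that trend within each library, *plod3* was at 0.22 and no longer called (limma adjusted p = 0.15), whereas *plod1a* was at 1.44 and *plod2* at 0.996, both still called (limma adjusted p = 0.0011 and 0.0079).

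**Figure D1:**
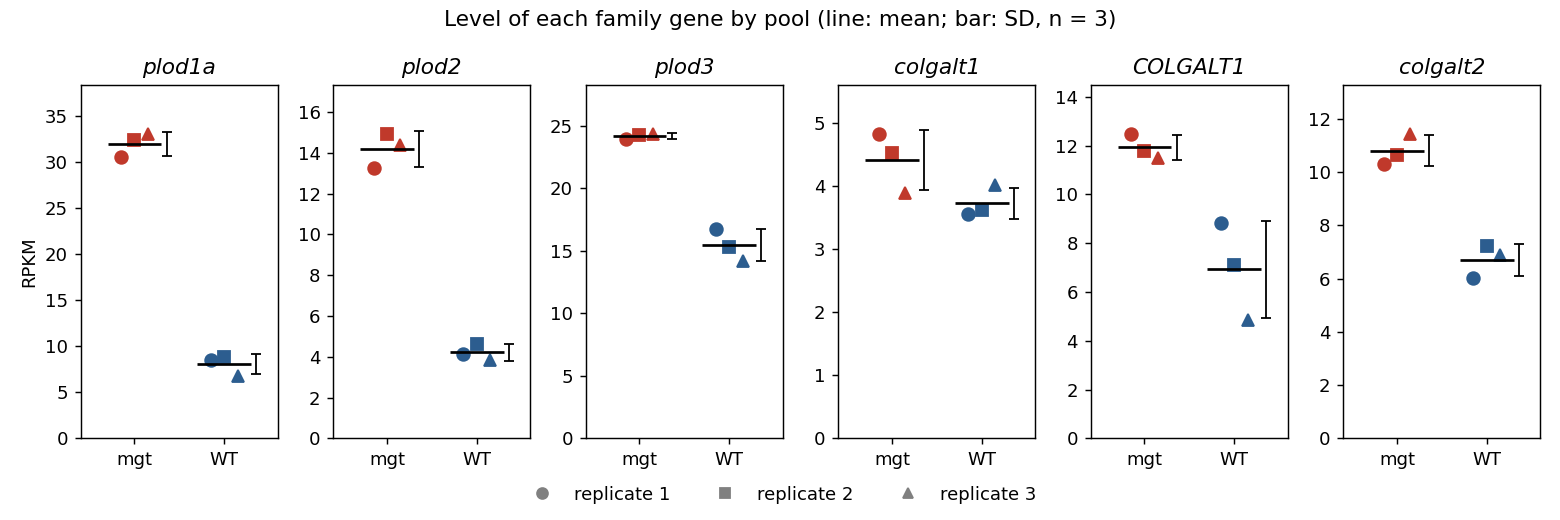
RPKM of the 6 genes in each pool of 60 larvae, with *mgt* at the left and WT at the right of each panel, and a vertical scale of its own for each gene. Marker shapes give the replicate number, lines the mean and bars the SD (n = 3), and the pools of *mgt* and WT overlap in *colgalt1* alone.

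The galactosyltransferase genes differed from each other in how far they stood from WT. Among them, *colgalt2* (chr8:19364568-19395110, ENSDARG00000014670) had the lowest adjusted p as deposited, and it is on the same chromosome as *plod1a*. Its RPKM was 10.3, 10.6 and 11.4 in *mgt* replicates 1, 2 and 3, against 6.04, 7.21 and 6.89 in WT replicates 1, 2 and 3. All *mgt* pools were higher, and WT replicate 1 was the lowest pool. The mean was 10.8 ± 0.58 (SD, n = 3) in *mgt* and 6.71 ± 0.60 (SD, n = 3) in WT. On the log2 scale *colgalt2* rose by 0.65 (standard error 0.11, adjusted p = 0.0065 by limma, Benjamini-Hochberg), and 0.58 without WT replicate 1 (limma adjusted p = 3.1e-04). The call depended on the scaling of the libraries. With median-of-ratios factors the log2 fold change of *colgalt2* was 0.36 (limma adjusted p = 0.13), with quantile normalization 0.36 (limma adjusted p = 0.13) and after removal of the span trend 0.28 (limma adjusted p = 0.25).

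The *COLGALT1* gene (chr1:58013076-58036509, ENSDARG00000058270) had the widest spread between WT pools of the 6 genes. Its RPKM was 12.5, 11.8 and 11.5 in *mgt* replicates 1, 2 and 3, against 8.83, 7.11 and 4.84 in WT replicates 1, 2 and 3. The *mgt* pools were all higher, and WT replicate 1 was the nearest to them. The ratio of the means was 1.72, and *COLGALT1* rose by 0.78 on the log2 scale (standard error 0.21, adjusted p = 0.024 by limma, Benjamini-Hochberg). Without WT replicate 1 it was 0.96 (limma adjusted p = 5.9e-04). Without WT replicate 3, the lowest WT pool, the log2 fold change of *COLGALT1* was 0.56 and the gene was still called (limma adjusted p = 0.034). The call was lost without WT replicate 2 (limma adjusted p = 0.059) and without any one *mgt* replicate (limma adjusted p from 0.074 to 0.084). Unlike that of *colgalt2*, it was kept under the other scalings. The log2 fold change of *COLGALT1* was 0.49 with median-of-ratios factors (limma adjusted p = 0.031) and 0.47 with quantile normalization (limma adjusted p = 0.025). After removal of the span trend it was 0.49 (limma adjusted p = 0.030). *COLGALT1* overlaps BX469930.2 in the table, a gene listed at an RPKM of 0 in every library.

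The *colgalt1* gene (chr3:52702700-52732034, ENSDARG00000073974) was the least abundant of the 6. Its RPKM was 4.83, 4.52 and 3.89 in *mgt* replicates 1, 2 and 3, against 3.56, 3.62 and 4.01 in WT replicates 1, 2 and 3. The pools overlapped, since *mgt* replicate 3 lay below WT replicate 3. On the log2 scale the difference was 0.21 (standard error 0.13, adjusted p = 0.20 by limma, Benjamini-Hochberg), below the median of all genes tested. Without WT replicate 1 it was 0.18 (limma adjusted p = 0.15). Its sign followed the scaling, with -0.059 under median-of-ratios factors, -0.18 under quantile normalization and -0.15 after removal of the span trend. With library sums made equal it was 0.42 and called (limma adjusted p = 0.045). A further galactosyltransferase gene, ENSDARG00000078299, is *colgalt2a* in the Ensembl name list and has a clone name in the table. It was near 0, with an RPKM of 0.05 to 0.08 in *mgt* and 0.01 to 0.03 in WT, and did not pass the filter.

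The order of the levels in RPKM was not the same in the 2 genotypes. This order, and the shares below, depend on the gene lengths used, which are not known here. In *mgt* larvae it was *plod1a*, *plod3*, *plod2*, *COLGALT1*, *colgalt2* and *colgalt1*, with *COLGALT1* and *colgalt2* differing by less than 1 RPKM between their closest pools and no overlap between any neighbours. In WT larvae *plod3* was the most abundant, with every pool above every pool of the other 5 genes. It was followed by *plod1a*, *COLGALT1* and *colgalt2*, whose pools overlapped, and then by *plod2* and *colgalt1*, whose pools overlapped too.

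A factor applied to a whole library leaves the makeup of its *plod* RNA as it is. The *plod3* share of the summed *plod* RPKM was 35.4%, 33.9% and 33.9% in *mgt* replicates 1, 2 and 3, against 57.1%, 53.3% and 57.2% in WT replicates 1, 2 and 3. The mutated gene thus made up more than the other *plod* genes together in each WT pool and less than *plod1a* alone in each *mgt* pool. The *plod1a* share was 45.1%, 45.2% and 46.0% in *mgt*, against 28.8%, 30.6% and 27.4% in WT. The *plod2* share was 19.6%, 20.9% and 20.03% in *mgt*, against 14.1%, 16.1% and 15.5% in WT. None of these shares overlapped between genotypes (two-sided exact permutation test, p = 0.10, which 3 pools against 3 cannot go below). The shares of a pool have a fixed sum, so they are not separate results. Of single genes tested, 63.4% were without overlap in either direction.

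Ratios between genes of a library show the same in another way. The log2 ratio of *plod1a* to *plod3* was 0.40 ± 0.045 (SD, n = 3) in *mgt* and -0.95 ± 0.14 (SD, n = 3) in WT, a difference of 1.35 (two-sided exact permutation test, p = 0.10). That of *plod2* to *plod3* was -0.77 ± 0.076 (SD, n = 3) in *mgt* and -1.87 ± 0.14 (SD, n = 3) in WT, a difference of 1.102 (two-sided exact permutation test, p = 0.10). Between *plod1a* and *plod2* the difference was 0.25, with log2 ratios of 1.11 to 1.20 in *mgt* and 0.82 to 1.03 in WT, which did not overlap (two-sided exact permutation test, p = 0.10). The makeup of the galactosyltransferase RNA varied more between WT pools. *COLGALT1* made up 42.9% to 45.2% of the summed *colgalt* RPKM in *mgt* and 30.8% to 47.9% in WT, and *colgalt2* 37.3% to 42.6% in *mgt* and 32.8% to 43.8% in WT, both with overlap. The *colgalt1* share was lower in every *mgt* pool, at 14.5% to 17.5%, against 19.3% to 25.5% in WT (two-sided exact permutation test, p = 0.10). The log2 ratio of *COLGALT1* to *colgalt1* was 1.37 to 1.56 in *mgt* and 0.27 to 1.31 in WT, a difference of 0.59 without overlap (two-sided exact permutation test, p = 0.10). That of *colgalt2* to *colgalt1* was 1.095 to 1.56 in *mgt* and 0.76 to 0.99 in WT, a difference of 0.45 without overlap (two-sided exact permutation test, p = 0.10).

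**Figure D2:**
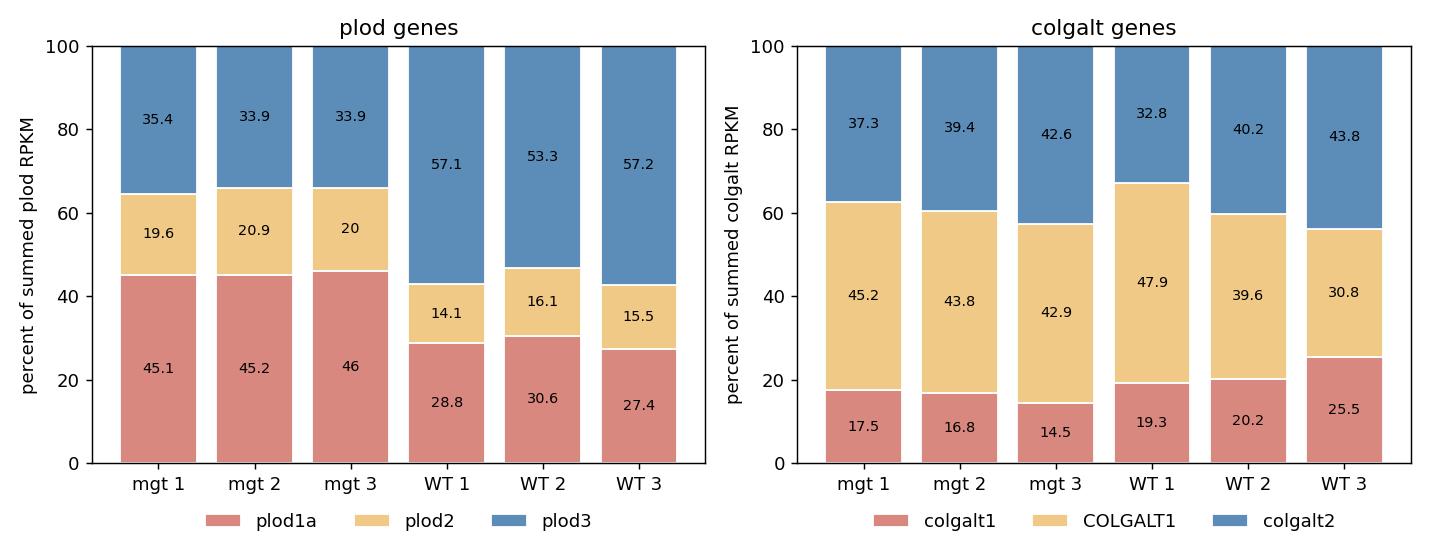
Share of each gene in the summed RPKM of the *plod* genes (left) and of the *colgalt* genes (right), in percent, for each pool, with the *mgt* pools left of the WT pools. In the *plod* genes *plod3* holds 33.9% to 35.4% in *mgt* and 53.3% to 57.2% in WT, and in the *colgalt* genes the shares of *COLGALT1* and *colgalt2* overlap between genotypes.

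The hydroxylase RNA was also set against that of its substrates. A list of collagen chains and collagen-like proteins held 46 genes of the table, and their summed RPKM was 4110, 3997 and 3996 in *mgt* replicates 1, 2 and 3, against 2592, 2854 and 2023 in WT replicates 1, 2 and 3. The *plod* genes together had 1.74 ± 0.085 RPKM (SD, n = 3) per 100 RPKM of this sum in *mgt* and 1.12 ± 0.11 (SD, n = 3) in WT, without overlap (two-sided exact permutation test, p = 0.10). Its members differed in this measure. For *plod1a* the value was 0.79 ± 0.045 (SD, n = 3) in *mgt* and 0.32 ± 0.014 (SD, n = 3) in WT, a ratio of 2.45. For *plod2* it was 0.35 ± 0.027 (SD, n = 3) in *mgt* and 0.17 ± 0.017 (SD, n = 3) in WT, a ratio of 2.06 (two-sided exact permutation test for either gene, p = 0.10). For *plod3* it was 0.60 ± 0.015 (SD, n = 3) in *mgt* and 0.63 ± 0.084 (SD, n = 3) in WT, and the pools overlapped (two-sided exact permutation test, p = 0.70). The *colgalt* genes together had 0.671 to 0.674 in *mgt* and 0.63 to 0.78 in WT, with overlap (two-sided exact permutation test, p = 0.70). The collagen sum does not stand for each chain. Its most abundant gene, *col1a1a*, was at a mean of 629 RPKM in *mgt* and 494 in WT, a log2 fold change of 0.35. By contrast, *col2a1a* was at 600 and 184 RPKM and rose by 1.74, more than *plod2* (1.64) and less than *plod1a* (1.94).

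Cartilage, whose cells make large amounts of collagen, had markers that moved the same way. The marker counts stand beside 31.8% of all genes tested called higher and 15.6% lower. Of 10 cartilage markers, 9 were called higher and 0 lower, the highest of them *acana*, which encodes aggrecan (log2 fold change 3.62). Their median log2 fold change was 1.51, against 0.29 over all genes tested. The summed RPKM of these markers was 582 to 640 in *mgt* and 268 to 280 in WT, and none of the 10 was at 0. Per 100 RPKM of this sum, *plod1a* and *plod2* together had 7.39 to 7.68 RPKM in *mgt* and 3.80 to 4.91 in WT. The largest part of the sum was *matn1*, at a mean of 301 RPKM in *mgt* and 158 in WT. Its log2 fold change of 0.93 was below the list median of 1.51, so the sum rose less than most of these markers. Beside that median, *plod1a* was at 1.94 and *plod2* at 1.64. The part of cartilage in the family's differences was not tested. Of 4 notochord markers tested 2 were called higher, *shha* and *tbxta*, the latter near the floor in WT (0.08 to 0.18 RPKM). The others were not called: *cav1* was at -0.26 with every *mgt* pool below every WT pool, and *epyc* is also a cartilage marker of the list above. Of 10 markers of fibroblasts and fin mesenchyme 2 were called higher and 1 lower, with summed RPKM of 532 to 572 in *mgt* and 591 to 756 in WT. Of 5 neuron markers 3 were called higher, with a median log2 fold change of 1.81, above that of the cartilage markers (1.51). The summed RPKM of the neuron markers was 425 to 439 in *mgt*, against 349 in WT replicate 1 and 126 to 175 in the other WT replicates. Of the other markers of whole larvae, 2 of 2 for liver and 1 of 6 for skeletal muscle were called lower, and tendon and osteoblast markers went both ways.

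The setting of the scale moved all members in the same direction, by unlike amounts, and left *plod1a* and *plod2* at the top. The median log2 fold change of all genes tested was 0.29 as deposited, 0.49 with library sums made equal, 0.03 with median-of-ratios factors and -0.002 with quantile normalization. Relative to that median, *plod1a* was higher by 1.65 as deposited and by 1.61 to 1.74 under these 3 scalings. For *plod2* the same values were 1.35 and 1.33 to 1.37, and for *plod3* 0.35 and 0.31 to 0.48. For *COLGALT1* they were 0.49 and 0.47 to 0.51, and for *colgalt2* 0.36 and 0.33 to 0.38. The *colgalt1* gene lay -0.08 from the median as deposited and -0.18 to -0.07 from it under these 3 scalings. Removal of the span trend changed the distances more for some members. They were then 1.44 for *plod1a*, 0.99 for *plod2*, 0.21 for *plod3*, 0.48 for *COLGALT1*, 0.27 for *colgalt2* and -0.15 for *colgalt1*.

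**Figure D3:**
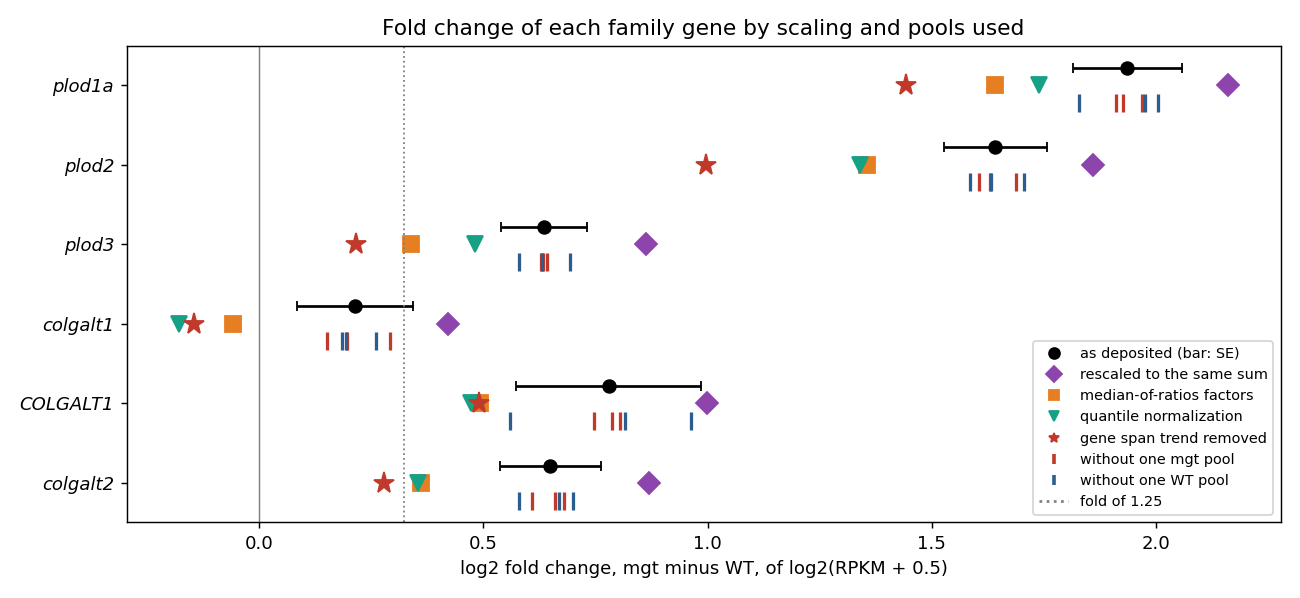
Log2 fold change of each gene, *mgt* minus WT, on the log2(RPKM + 0.5) scale, with all pools as deposited (black, bar for the standard error), under other scalings (coloured symbols) and with one pool left out (ticks). *plod1a* stays between 1.44 and 2.16 and *plod2* between 0.996 and 1.86, and *colgalt1* lies on both sides of 0.

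Genes that act beside the family, or that encode enzymes of related reactions, were listed by name, among them the related hydroxylases of proline. Of 8 genes for prolyl 4-hydroxylase subunits and other 2-oxoglutarate dioxygenases, 5 were called higher and 1 lower. The shares over all genes tested were 31.8% higher and 15.6% lower. The median log2 fold change of these 8 genes was 0.92, against 0.29 over all genes tested. The highest was *p4ha1b*, at 30.1 ± 1.14 RPKM (SD, n = 3) in *mgt* and 3.17 ± 0.29 (SD, n = 3) in WT, a log2 fold change of 3.06, and the one lower was *ogfod1* (-0.66). The summed RPKM of the *p4ha* genes was 96.5 to 101 in *mgt* and 19.0 to 22.6 in WT. The summed *plod* RPKM was 0.70 to 0.71 of the summed *p4ha* RPKM in *mgt* and 1.28 to 1.32 of it in WT. Lysyl oxidases act on lysine and hydroxylysine outside the cell to start cross-links. Of their genes, 7 of 8 tested were called higher and 0 lower, beside the same 31.8% and 15.6% over all genes tested. Their median was 1.30. Their highest was *loxl5b*, at 2.99 ± 0.10 RPKM (SD, n = 3) in *mgt* and 0.21 ± 0.081 (SD, n = 3) in WT, and their lowest called was *loxl2b*, with a log2 fold change of 0.89.

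Partners of the hydroxylases in the endoplasmic reticulum had smaller differences. Of 18 genes, 11 were called higher and 0 lower, where 31.8% of all genes tested were called higher and 15.6% lower. Their median log2 fold change was 0.57, against 0.29 over all genes tested. The highest called was *p3h2* (0.97) and the lowest called was *p3h4* (0.50). In mammals *p3h3* and *p3h4* encode members of a complex with PLOD1. The *p3h3* gene was at 0.26 and not called (limma adjusted p = 0.068), although every *mgt* pool was above every WT pool. FKBP10 is known in humans as a partner of PLOD2, and of its zebrafish counterparts *fkbp10a* rose by 0.79 and *fkbp10b* by 0.56 on the log2 scale. The *ppib* gene, for cyclophilin B, was at -0.41 and not called (limma adjusted p = 0.072), although every *mgt* pool was below every WT pool. Over all genes tested, 41.7% had every *mgt* pool above and 21.6% had every *mgt* pool below. With median-of-ratios factors 2 of the 18 partners were called.

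Other sugar-adding enzymes and the glucosidase that removes glucose from the sugars on hydroxylysine made up a list of 11 genes. Of these 3 were called higher and 0 lower, where 31.8% of all genes tested were called higher, and the count was 0 to 5 with one pool left out. The median log2 fold change was 0.10, against 0.29 over all genes tested, and the highest and lowest called were *pofut2* (0.54) and *poglut2* (0.36). The glucosidase gene *pgghg* was at 4.59 ± 0.27 RPKM (SD, n = 3) in *mgt* and 4.24 ± 0.11 (SD, n = 3) in WT and was not called (log2 fold change 0.10, limma adjusted p = 0.46). The *cercam* gene, a relative of the *colgalt* genes by sequence, was at 14.2 ± 0.67 RPKM (SD, n = 3) in *mgt* and 11.96 ± 0.48 (SD, n = 3) in WT and was not called either (log2 fold change 0.23, limma adjusted p = 0.077). Every *mgt* pool of *cercam* was above every WT pool, as in 41.7% of all genes tested.

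**Figure D4:**
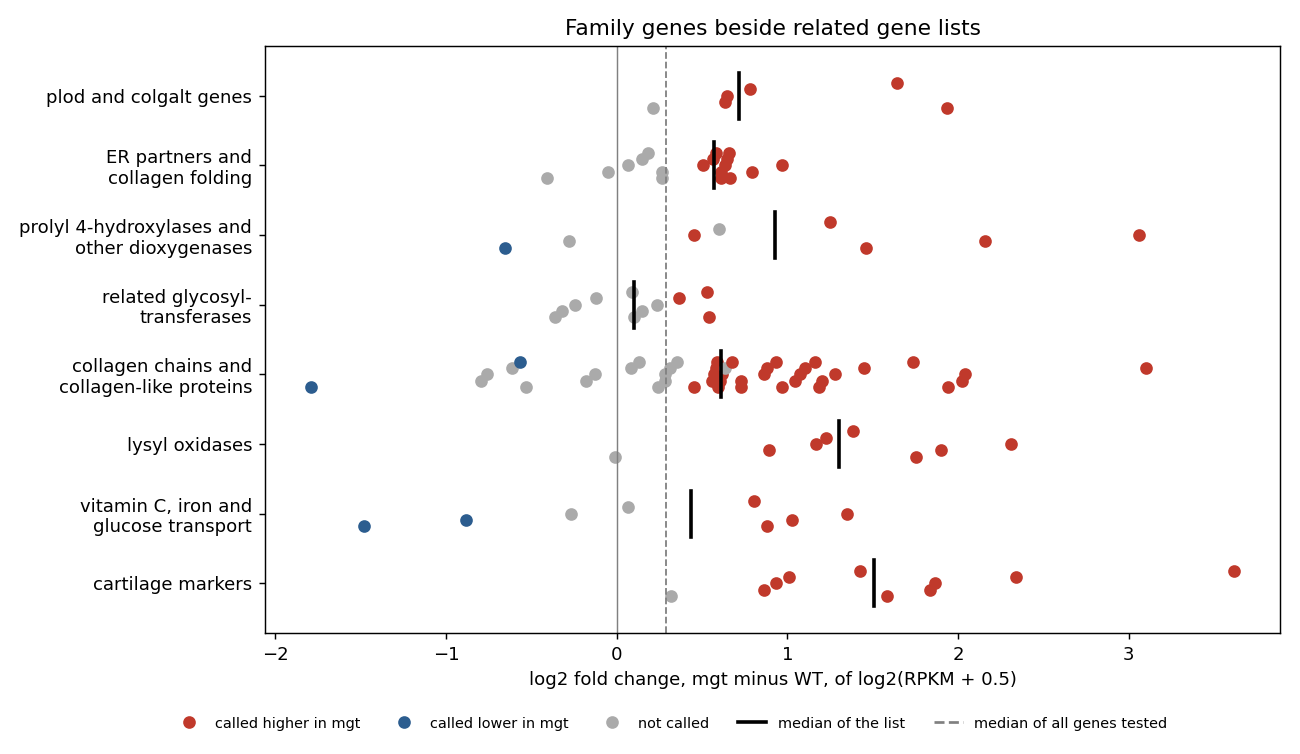
Log2 fold change, *mgt* minus WT, of the 6 family genes and of the genes tested in 7 related lists, 1 point a gene, with red for genes called higher in *mgt*, blue for lower and grey for not called. Black lines are list medians and the dashed line is the median of all genes tested (0.29), and the glycosyltransferase list (0.10) is the only one of these lists with a median below it.

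The genes whose levels followed those of a member most closely were sought among 9481 or 9482 other genes with a name and a mean of 5 RPKM or more. Over the 6 libraries, which are 2 groups of 3, Pearson's r of log2(RPKM + 0.5) mostly reflects the step between genotypes, and 882 of the genes had an r above 0.95 with *plod1a*. The closest to *plod1a* were *sdc4*, *nt5dc2* and *fndc3bb*, and the closest to *plod2* were *gdf10a*, *adamts8a* and *igfbp1a*. For *plod3* they were *G3BP2*, *ptch1* and *myhb*, for *COLGALT1* *canx*, *cemip* and *pik3cb*, and for *colgalt2* *atad3*, *tmem204* and *tmem176l.1*, each with an r of at least 0.997. For *colgalt1* the closest were *lhfpl2a* (r = 0.95), the only gene above 0.95 for this member, *selenom* (r = 0.93) and *acp1* (r = 0.93). Among the members, r was 0.998 between *plod1a* and *plod2*, and 0.51 to 0.70 between *colgalt1* and each of the others.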

How the data were processed

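RNA-seq of whole larvae at 4 dpf was analysed, in 3 *mgt* and 3 WT pools. The authors depleted ribosomal RNA, trimmed reads with cutadapt 5.2, and used STAR with the GRCz11 genome and HTSeq for counting. They deposited RPKM with 2 decimals, in a table whose name says that outliers are not in it, and what was left out is not given in the sources used here. The gene length behind these values is not given in the sources used here. The RPKM multiplied by gene span sums to 7.02 to 8.66 times what a length equal to the span would give, so another length was used. The deposited columns of means, SD and mean ratios per genotype were not used. Library totals (38.35 to 50.27 in units of 1e+06 reads) came from the single-read steps of RPKM in genes of at most 160 bases.

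Of 32521 lines, 32520 genes were kept after removal of a repeated identifier. Values were log2(RPKM + 0.5), filtered at a mean RPKM of 0.5, and fitted with limma 3.58.1 in R 4.3.3 (eBayes with trend). The code was tested on simulated data. Shares and ratios within a library were compared with exact permutation tests over the pools. The members, lists and alternatives were chosen with earlier results of these data known. Named were all members, the highest and lowest called gene of each list, known partners, overlapping genes and the 3 genes most like each member. Cartilage, notochord and fibroblast genes named are from the marker lists. The collagen genes *col1a1a* and *col2a1a* were named after their values were seen. A second *col6a3* entry was left out of the collagen list. Replicate numbers are shared by both genotypes, but the pools were not treated as paired in the main test. The alternatives were other pseudocounts, filters, scalings, eBayes settings and thresholds, the replicate number as a block, a lowess trend with gene span (0.3) removed, and each replicate left out. Plots used matplotlib 3.10.9.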

Additional observations from a re-analysis of the deposited data

How the results depend on the processing

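The differences of *plod1a* and *plod2* kept their direction and their call under all 19 alternatives tried, and *plod3* in 17 of them. With the trend with gene span removed, 3 of the 6 family genes were called in place of 5, and 17 collagen genes in place of 30, 4 partners in place of 11, and the difference in share of the summed *plod* RPKM was 2.65 points for *plod2* (4.91 as deposited) and -19.1 points for *plod3* (-21.4). With a minimum change of 2.38-fold, 2 family genes, 8 collagens, 4 lysyl oxidases, 2 genes of vitamin C and iron supply, 0 partners, 0 glycosyltransferases and 2174 genes in all were called (9688 in the main test). With median-of-ratios factors 2 partners were called, and with quantile normalization 7 partners and 5 glycosyltransferases (3 in the main test). The log2 fold change of *colgalt1* turned to -0.059 with median-of-ratios factors, -0.18 with quantile normalization and -0.15 with the span trend removed. Of all called genes, 67.0% were higher in *mgt* as deposited, 82.3% after rescaling to the same sum, 49.4% with median-of-ratios factors, 46.7% with quantile normalization, 46.5% with the span trend removed and 77.6% with the 2.38-fold minimum.

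With each replicate left out in turn, between 4042 and 14352 genes were called in all, with 14352 without WT replicate 1, 5790 to 5864 without WT replicate 2 or 3, and 4042 to 4228 without any one *mgt* replicate. The family count was 4 to 5, partners 6 to 12 (6 without *mgt* replicate 1 or 2), glycosyltransferases 0 to 5 (5 without WT replicate 1, 0 to 1 without WT replicate 3 or any one *mgt* replicate), collagens 20 to 31 (20 without *mgt* replicate 2), lysyl oxidases 7, other dioxygenases 5 to 7, and vitamin C and iron genes 4 to 7 (7 without WT replicate 1). The difference in share, *mgt* minus WT, was 15.7 to 17.4 points for *plod1a*, 4.36 to 5.35 for *plod2*, -22.7 to -20.8 for *plod3*, -6.58 to -3.50 for *colgalt1*, 0.17 to 8.75 for *COLGALT1* and -2.18 to 3.33 for *colgalt2*, below 0 without WT replicate 1 (-2.18) or *mgt* replicate 3 (-0.52). Per 100 RPKM of collagens it was 0.56 to 0.67 for the *plod* sum and -0.0718 to 0.0030 for the *colgalt* sum, above 0 without WT replicate 3. Pools of equal replicate number showed no shared deviations (correlations of deviations from -0.030 to 0.030). With 3 pools a genotype this does not settle whether they were paired. With the replicate numbers as a block, 8121 genes and the same number of family genes, 5, were called. The cause of these changes was not tested. Of the galactosyltransferase genes, *colgalt2a* lay under the filter, and the part of depth in the other results was not tested.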

Other observations

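The collagen list itself held 28 genes called higher and 2 lower of 44 tested, where all genes tested had 31.8% higher and 15.6% lower. The list had a median log2 fold change of 0.61, against 0.29 over all genes tested. The highest was *col8a1a*, a short-chain collagen, at 19.3 ± 0.69 RPKM (SD, n = 3) in *mgt* and 1.82 ± 0.27 (SD, n = 3) in WT. The lowest was *adipoqb*, which encodes a collagen-like hormone of fat tissue, at 0.44 ± 0.14 RPKM (SD, n = 3) in *mgt* and 2.78 ± 0.74 (SD, n = 3) in WT. After removal of the trend with gene span, 17 of the collagen genes were called.

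Lysyl hydroxylases need vitamin C and iron, and of 8 genes listed for their supply 4 were called higher and 2 lower. Over all genes tested 31.8% were called higher and 15.6% lower, and these 8 genes are too few to set apart from those shares. The highest was *slc2a1b*, for a glucose transporter that in mammals also takes up oxidized vitamin C, at 22.5 ± 0.82 RPKM (SD, n = 3) in *mgt* and 8.61 ± 1.37 (SD, n = 3) in WT. The lowest of the list was *slc23a3*, at 0.78 ± 0.13 RPKM (SD, n = 3) in *mgt* and 3.20 ± 1.15 (SD, n = 3) in WT. Its part in vitamin C supply was not tested. Of the other *slc23a* genes, named after their values were seen, *slc23a1* was called lower (log2 fold change -0.88) and *slc23a2* higher (0.80). The *slc39a13* gene, for a zinc transporter whose loss in humans causes a form of Ehlers-Danlos syndrome with underhydroxylated collagen, was named after its values were seen. It was called higher, at 8.46 ± 0.56 RPKM (SD, n = 3) in *mgt* and 3.89 ± 0.14 (SD, n = 3) in WT.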
